A study of Mus musculus with 6 samples.

Results

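Lung RNA of 6 wild type mice, of which 3 were fed control diet and 3 high fat diet, was read on 1 Affymetrix mouse expression array each, and the cytochrome P450 (Cyp) genes outside the main targets of the aryl hydrocarbon receptor are described here. The members are all probe sets whose platform annotation names a single gene with a Cyp symbol, leaving out Cyp1a1, Cyp1b1, Cyp2s1, Cyp2f2 and Cyp51. They were 89 probe sets of 68 genes, among 45101 probe sets on the array. Both groups are wild type in the labels; strain, age, sex, diet composition and length of feeding are not stated there. Each array has its own sample number in the labels and is called a mouse here, but the labels do not say that each came from a separate animal, so p-values measure only the spread between these samples, which may be technical. A probe set is a group of short probes for 1 transcript end, and its signal is a MAS5 intensity on a linear scale.

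Cytochromes P450 are haem enzymes that add an oxygen atom to a substrate, with electrons from P450 reductase in the endoplasmic reticulum or from ferredoxin in mitochondria. Families 2 and 3 clear drugs and other foreign compounds, family 4 oxidises the tail end of fatty acids and eicosanoids, and further families make or break down steroids, bile acids, vitamin D and retinoic acid. Club cells of the airways are known for a high content of P450 enzymes, which is why the lung is a target of inhaled compounds that P450s turn into toxins.

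Most of these genes gave no signal above background in the lung, and most of those that did were not called different between the diets. A probe set was taken as above background, and tested, if its log2 signal, averaged across all 6 arrays, was at or above the 40th percentile of probe sets, a signal of 70.3. This level was passed by 30 of the 89 probe sets, which name 21 of the 68 genes. The deposited values carry no detection calls, so odorant and vomeronasal receptor genes, assumed here to be mostly silent in lung, served as a second reference. Of their 77 probe sets 1 passed the level, and 95% of them lay below a signal of 48.8. By that lower level 36 Cyp probe sets of 27 genes were above background, the additional genes being Cyp21a1, Cyp2b9, Cyp2c38, Cyp2r1, Cyp2c54 and Cyp2c68. Just inside the 40th percentile lay a probe set of Cyp20a1 (mean signal 75.2) and that of Cyp2c23 (74.2), and just outside lay those of Cyp21a1 (68.0) and Cyp2b9 (64.8).

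**Figure D1:**
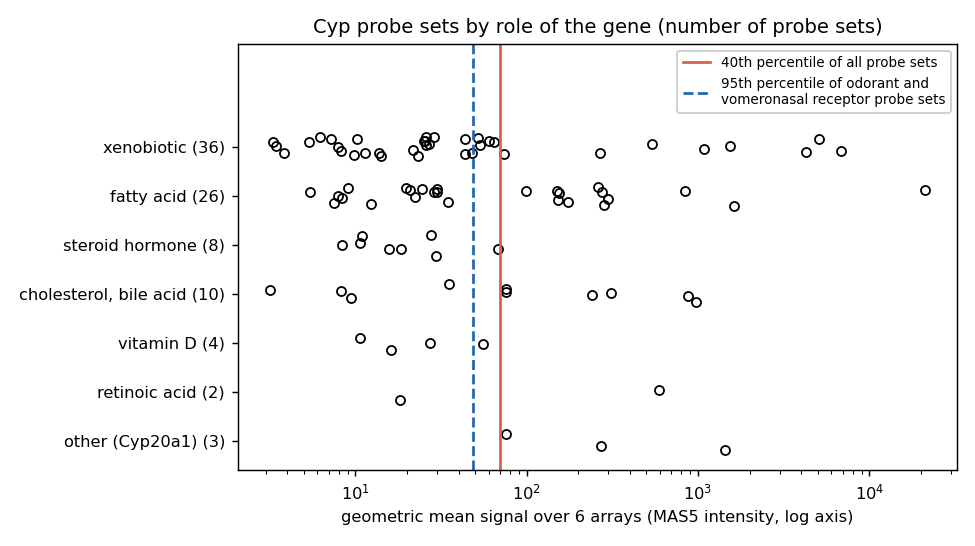
Geometric mean signal over the 6 arrays (log axis) of each of the 89 Cyp probe sets, 1 circle each, in rows by the role of the gene; circles are spread vertically for visibility. The solid line marks the 40th percentile of all probe sets (70.3) and the dashed line the 95th percentile of odorant and vomeronasal receptor probe sets (48.8); 30 circles lie to the right of the solid line.

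The genes above background fell unevenly over the roles. Of 36 probe sets of xenobiotic-metabolising enzymes 8 passed, naming Cyp2b10, Cyp2e1, Cyp2d22, Cyp3a13 and Cyp2c23. Of 26 probe sets of fatty acid and eicosanoid oxidising enzymes 12 passed, naming Cyp4b1, Cyp4v3, Cyp4f13, Cyp4f15, Cyp4f16, Cyp4f18, Cyp4f39, Cyp2j6 and Cyp2j9. Of 10 probe sets for cholesterol, oxysterol and bile acid enzymes 6 passed, naming Cyp27a1, Cyp39a1, Cyp7b1, Cyp8b1 and Cyp46a1. Cyp26b1, which breaks down retinoic acid, and Cyp20a1, a P450 without an agreed substrate, made up the rest. None of 8 probe sets for steroid hormone synthesis (Cyp11a1, Cyp11b1, Cyp11b2, Cyp17a1, Cyp21a1) and none of 4 for vitamin D metabolism (Cyp2r1, Cyp24a1, Cyp27b1) passed.

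The share that passed differed between the drug-metabolising subfamilies. Of 11 probe sets of Cyp2c 1 passed, of 10 of Cyp2d 2 passed, of 5 of Cyp3a 1 passed and of 6 of Cyp2b 3 passed, all of Cyp2b10. Of 4 probe sets of Cyp4a, fatty acid hydroxylases of liver and kidney, 0 passed, and of 9 of Cyp4f 6 passed. A set of 14 P450 genes that are abundant in liver (Cyp1a2, Cyp2a12, Cyp2c29, Cyp2c37, Cyp2c50, Cyp2c70, Cyp2d9, Cyp2d10, Cyp2d26, Cyp3a11, Cyp3a25, Cyp4a12a, Cyp4a14 and Cyp7a1), chosen after their values were seen, had 15 probe sets and 0 above background, a count that the choice itself set. Liver is also known for Cyp2e1, Cyp8b1 and Cyp27a1, which are not in the set and were above background. The mean signals of the 15 probe sets of the set ran from 3.3 to 43.8. The highest single value among them was that of Cyp4a12a in high fat replicate 1 (238), while the other high fat mice were at 2.4 and 62.6 and the control mice at 28.2 to 42.1. Of 15 liver markers on the array (Alb and others) 4 were above background and 1 was called higher, and the summed marker signal was 495 to 515 in control and 782 to 2467 in high fat mice. The 4 passed on their mean over all arrays. In control mice Apoa2 (26.8 to 59.9) lay below the background level and Hpx (84.2 to 106) above it. Serpina1c (38.8 to 83.9) and Alb (34.2 to 86.6), the called marker, lay on both sides of it in control mice. The size of the Alb difference is therefore uncertain.

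Signals of different probe sets depend on their probes, so a brighter probe set does not show a more abundant transcript. The background level and the marker sums are used only as rough guides across probe sets. The arrays differed between the groups in ways that touch every value. Across probe sets the median signal was 143 to 150 on control and 113 to 129 on high fat arrays, and the Gapdh control signal at the 3' end over that at the 5' end, a sign of RNA integrity, was 0.743 to 0.795 in control and 0.854 to 0.957 in high fat mice. In control replicate 1 the summed signal of 10 markers of nasal and oesophageal epithelium was 76033, against 574 and 871 in the other control mice and 429 to 664 in the high fat mice. Skeletal muscle markers varied too. The summed signal of 11 of them was 79599, 683 and 3987 in control and 23133, 1339 and 1471 in high fat mice. The part of these differences in the results was not tested. In whole lung tissue, fewer cells of a type and less RNA per cell cannot be told apart.

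Among the 30 tested Cyp probe sets, 1 was called higher and 2 were called lower on the high fat diet (limma, Benjamini-Hochberg adjusted p under 0.05 over all 27022 tested probe sets). That is 10%, against 12.9% of all tested probe sets, of which 4.63% were higher and 8.27% lower, so the share of P450 probe sets called lay near the background. The groups did not overlap for 5 of the 30 (16.7%), against 36.2% of all tested probe sets. The median log2 difference (high fat minus control) was -0.04, against -0.06 over all tested probe sets, with 14 positive and 16 negative. Of the 30, 6 had an unadjusted limma p under 0.05 (31.1% of all tested probe sets did). Counted by gene, each by its brightest tested probe set, 0 were called higher and 1 lower of 21, where 4.56% and 2.2% of 12689 genes were; by this count of 0 higher, eBayes with robust estimation gave 1 and median centring gave 3. The 95% interval of the log2 difference lay within 2-fold either way for 19 of the 30 probe sets, so differences beyond 2-fold lay outside the interval for these and inside it for the other 11.

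**Figure D2:**
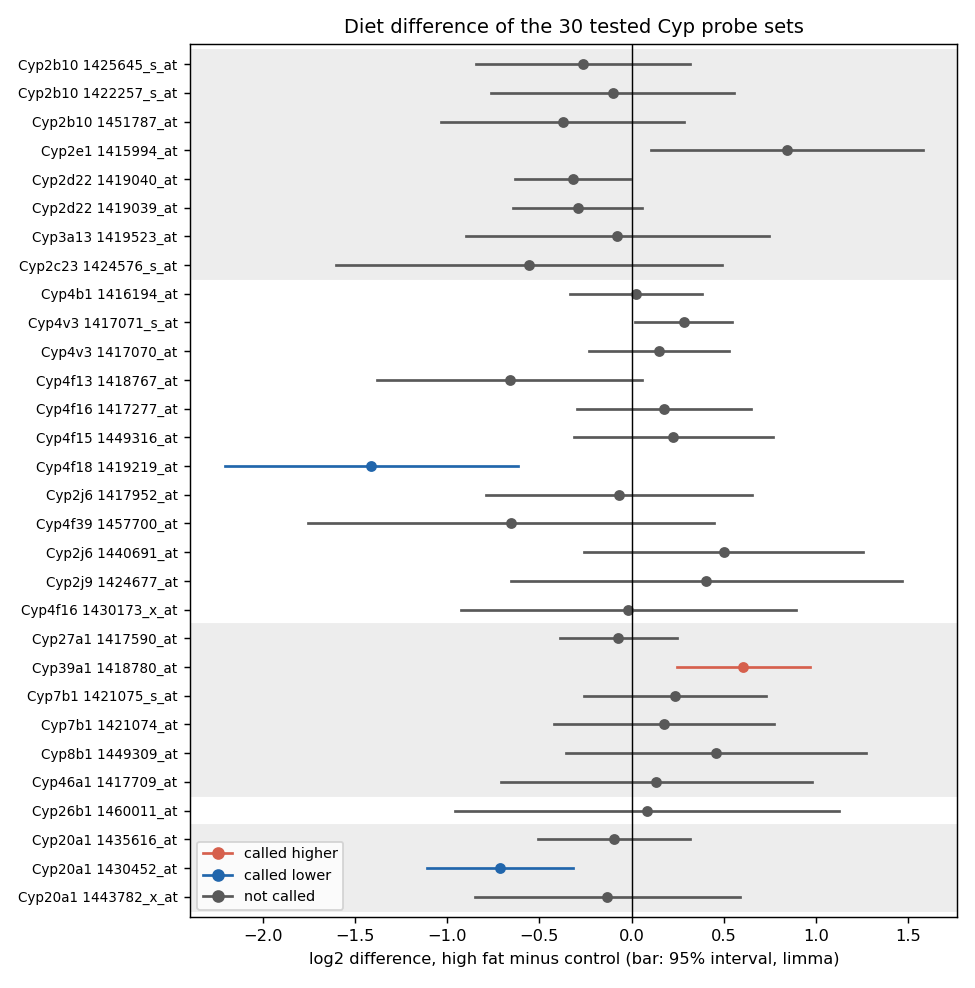
Log2 difference (high fat minus control) of each of the 30 tested Cyp probe sets with its 95% interval from limma; rows are grouped by role in the order xenobiotic, fatty acid, cholesterol and bile acid, retinoic acid and Cyp20a1. Cyp39a1 was called higher (0.60), Cyp4f18 (-1.41) and 1 probe set of Cyp20a1 (-0.71) were called lower, and the other 27 were not called.

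Cyp4f18, which inactivates the neutrophil attractant leukotriene B4 in myeloid cells, had the largest difference of all tested members. Its signal (probe set 1419219_at) was 336, 422 and 537 in the control group and 281, 112 and 129 in the high fat group. Every high fat mouse lay below every control mouse, with high fat replicate 1 nearest to the controls. The means were 432 ± 101 and 174 ± 92.9 (SD, n = 3 each). Folds here and below are ratios of geometric means, from the fit on log2 signals, and need not equal the ratio of the printed means; Cyp4f18 fell to 0.376 times the control level (log2 -1.41, SE 0.35, limma adjusted p = 0.0338, and 0.0484 adjusted over genes). The call was kept in 1 of 6 fits with 1 mouse left out (without high fat replicate 1), where the log2 difference ran from -1.82 to -1.16 and the adjusted p reached 0.12 without control replicate 3. A second probe set of Cyp4f18 was far below background, at 6.98 to 39.3 in control and 2.26 to 6.24 in high fat mice, and was not tested.

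Some leukocyte markers were also called lower. Of 7 neutrophil markers on the array 6 were above background (Cxcr2 was not), 2 were called lower and 0 higher, and their summed signal was 7786, 7602 and 18663 in control and 4305, 6368 and 7845 in high fat mice. A large part of the high fat sums was Lcn2, the only tested marker of these with a positive difference (log2 0.34). Lcn2 was at 2713, 2230 and 3435 in control and 2331, 4306 and 4180 in high fat mice. The markers called lower were S100a9 and Mmp8. Mmp8 was at 121, 177 and 349 in control and 51.1, 58.2 and 53.8 in high fat mice. All its high fat values lay below the background level, which it passed on its mean over all arrays, so the size of its fall is uncertain. Control replicate 3 had the highest neutrophil sum and the highest Cyp4f18 signal, whereas among the high fat mice replicate 1 had the lowest neutrophil sum and the highest Cyp4f18 signal. Of 7 B cell markers, all above background, 3 were called lower, with sums of 4673 to 6849 in control and 1675 to 3650 in high fat mice. Of 11 macrophage markers, all above background, 3 were called higher and 2 lower, with overlapping sums of 27432 to 30821 and 18204 to 32942. The part of these cells in the Cyp4f18 difference was not tested.

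The other tested enzymes of the Cyp4f subfamily, which hydroxylate long-chain fatty acids and leukotrienes, were not called. Cyp4f13 stood at 462, 404 and 288 in control and 339, 269 and 149 in high fat mice, and the groups overlapped (log2 -0.66, SE 0.32, limma adjusted p = 0.192). Cyp4f15 (log2 0.23) and the brighter probe set of Cyp4f16 (log2 0.18) had small positive values, and the dimmer one of Cyp4f16 was at -0.02. Cyp4f39, the counterpart of the human enzyme that makes skin barrier ceramides, was at 438, 170 and 97.5 in control and 145, 104 and 124 in high fat mice. Its high value was confined to control replicate 1 among the 6 mice. That mouse had the highest skeletal muscle marker sum (79599) and the nasal and oesophageal marker sum of 76033. Of the 10 nasal and oesophageal markers 5 were above background, and Krt13, Krt14, Obp1a, Omp and Bpifa3 were not. The log2 difference of Cyp4f39 was -0.65 with all mice (SE 0.49, limma adjusted p = 0.391) and -0.06 without control replicate 1.

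Cyp4b1, a lung-rich P450 that oxidises fatty acids and activates furan toxins, was almost level between the diets. Its signal (1416194_at) was 16881, 24298 and 22214 in control and 20471, 21568 and 21600 in high fat mice. The high fat values lay inside the control range. The log2 difference was 0.02 (95% interval -0.34 to 0.38, SE 0.16, limma adjusted p = 0.941), which keeps a difference of 2-fold either way outside the interval. Cyp4v3, a fatty acid hydroxylase, was at 1430, 1414 and 1585 in control and 1778, 1954 and 1660 in high fat mice by its brighter probe set. Those groups did not overlap, yet the difference was not called (log2 0.28, SE 0.12, limma adjusted p = 0.138), and the dimmer probe set overlapped (log2 0.15).

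The Cyp2j enzymes, which epoxidise arachidonic acid, were dim and varied between mice. The 2 probe sets of Cyp2j6 differed in sign: 1 was at 172 to 187 in control and 104 to 238 in high fat mice (log2 -0.07), the other at 107 to 143 and 114 to 261 (log2 0.50, limma adjusted p = 0.341). Cyp2j9 ranged from 66.8 to 229 in control and 109 to 223 in high fat mice (log2 0.41, SE 0.47).

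**Figure D3:**
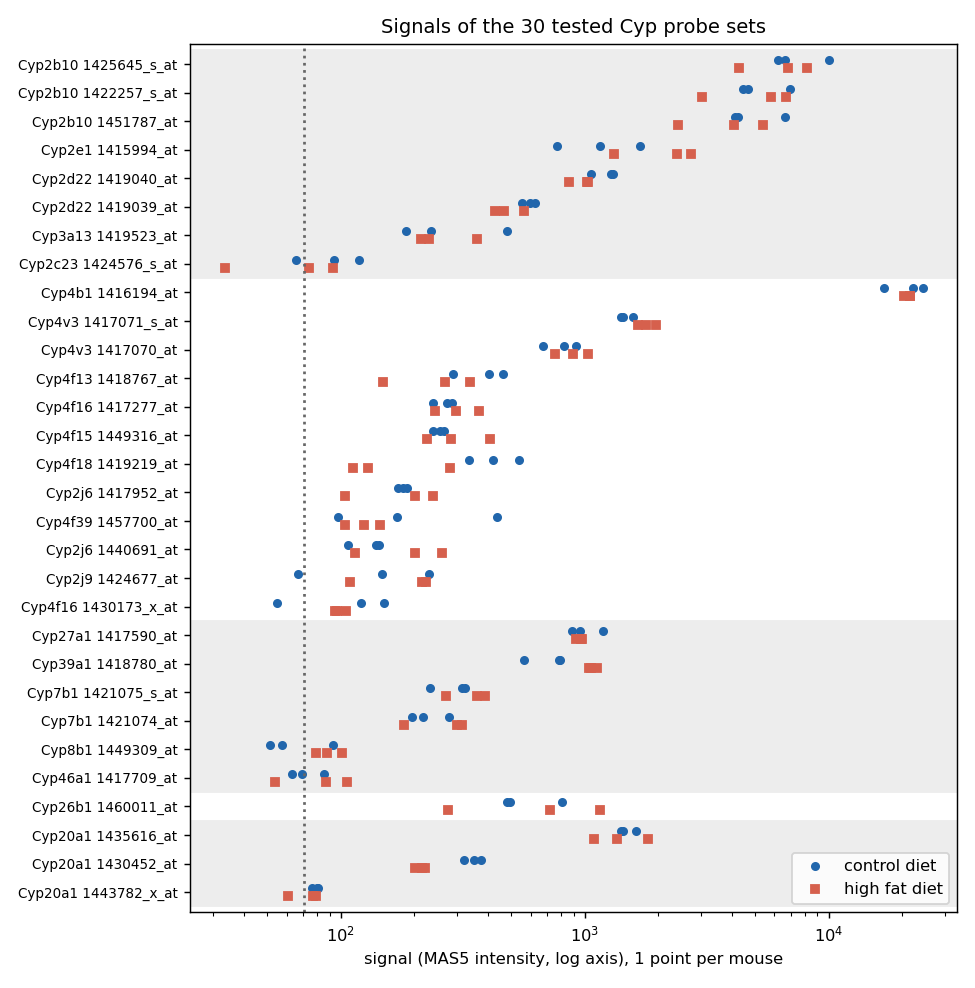
Signals (MAS5 intensity, log axis) of the 30 tested Cyp probe sets in each mouse, grouped by role in the same order as the differences; circles are control and squares high fat mice, and the dotted line is the background level of 70.3. Groups that do not overlap are those of Cyp4v3 (brighter probe set), Cyp2d22 (brighter probe set), Cyp39a1, Cyp4f18 and the Cyp20a1 probe set 1430452_at.

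Among xenobiotic enzymes none of the 8 tested probe sets was called, with 2 at an unadjusted limma p under 0.05 (Cyp2e1 and the brighter Cyp2d22 probe set). Cyp2e1, which oxidises ethanol, acetone and other small molecules, had the largest positive difference of all tested members. Its signal (1415994_at) was 769, 1159 and 1679 in control and 2739, 1315 and 2382 in high fat mice. High fat replicate 2 lay below control replicate 3, and the other 2 high fat mice lay above all controls. The means were 1202 ± 457 and 2145 ± 741 (SD, n = 3 each), with a log2 difference of 0.84 (SE 0.33, limma adjusted p = 0.12). It was called with arrays centred on their median (log2 1.11, limma adjusted p = 0.034), a scaling that moves the median of all tested probe sets to 0.22.

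Fat tissue is known to express Cyp2e1, and adipocyte markers were called higher in the same mice. Of 10 adipocyte markers on the array 8 were above background (Lep and Aqp7 were not), 6 were called higher and 0 lower. Their summed signal was 2654, 3324 and 6548 in control and 35241, 23856 and 24960 in high fat mice. Within each diet the mice had the same order in Cyp2e1 and in the adipocyte sum: control replicates 1, 2 and 3 from lowest to highest, and high fat replicates 2, 3 and 1. The groups were far apart in the marker sum and overlapped in Cyp2e1. The part of adipocyte transcripts in the Cyp2e1 signal was not tested.

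**Figure D4:**
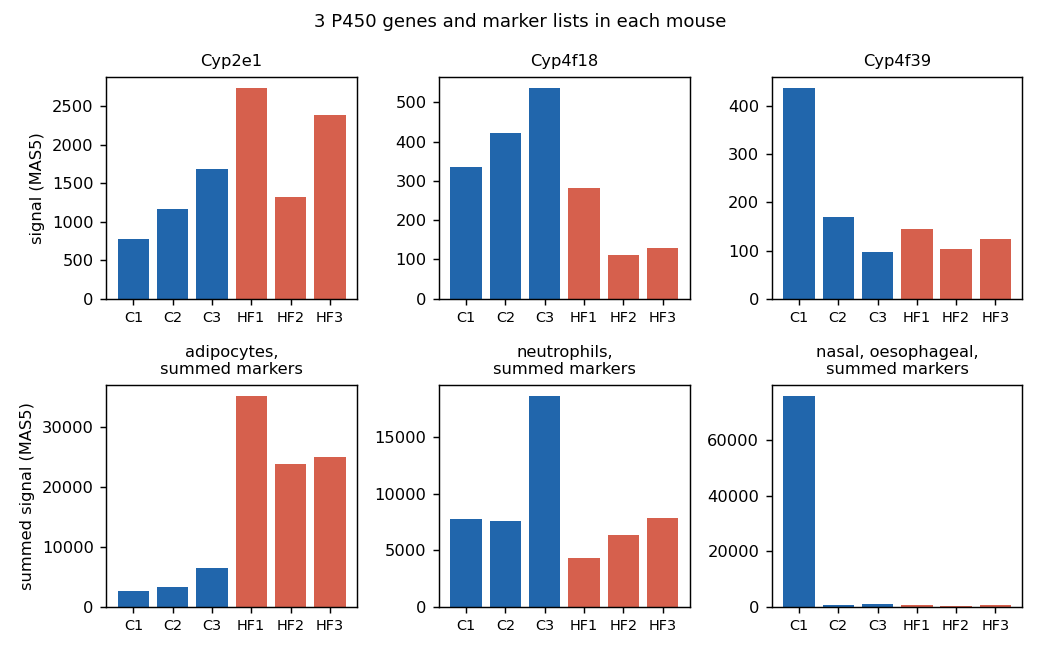
Signals of Cyp2e1, Cyp4f18 and Cyp4f39 (upper row) and summed signals of adipocyte, neutrophil and nasal or oesophageal markers (lower row) in control (C1 to C3, blue) and high fat (HF1 to HF3, red) mice; bars are single mice and start at 0. Cyp4f39 (438) and the marker sum below it (76033) are highest in control replicate 1.

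Cyp2b10, which phenobarbital-like compounds induce in liver, was bright by all 3 of its probe sets and did not separate the diets. By the brightest (1425645_s_at) it was at 6206, 6645 and 10083 in control and 6831, 8164 and 4306 in high fat mice. All 3 probe sets were highest in control replicate 3 and lowest in high fat replicate 3, and their log2 differences were -0.26, -0.10 and -0.37 (limma adjusted p = 0.522, 0.844 and 0.415). Of the 30 tested probe sets 7, including 2 of Cyp2b10, carry the Affymetrix suffix for probes that may match several transcripts, so close paralogs such as the other Cyp2b genes may share these signals. Of 14 club cell markers, all above background, 3 were called higher, with sums of 130626 to 230782 in control and 185664 to 292619 in high fat mice.

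Cyp2d22, a mouse relative of the human drug-metabolising CYP2D enzyme, was at 1063, 1278 and 1307 in control and 863, 1035 and 1022 in high fat mice by its brighter probe set. The groups did not overlap but were close (log2 -0.32, SE 0.14, limma adjusted p = 0.151), and the dimmer probe set gave log2 -0.29 (limma adjusted p = 0.234). Cyp3a13, a drug-metabolising enzyme also found outside liver, was at 480, 185 and 234 in control and 229, 363 and 213 in high fat mice (log2 -0.08). Its highest value was again in control replicate 1. Cyp2c23, an arachidonic acid epoxygenase of kidney, lay near background, at 65.3 to 119 in control and 33.5 to 92.7 in high fat mice (log2 -0.56, SE 0.46, limma adjusted p = 0.446).

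Among sterol enzymes, Cyp39a1 was called higher. Cyp39a1 hydroxylates an oxysterol on one route to bile acids. Its signal (1418780_at) was 561, 794 and 787 in control and 1121, 1037 and 1061 in high fat mice. All high fat mice lay above all control mice, and they differed little from each other. The means were 714 ± 132 and 1073 ± 43 (SD, n = 3 each), a 1.52-fold rise (log2 0.60, SE 0.16, limma adjusted p = 0.0404). Adjusted over genes its p was 0.0567, which is not a call, and in 0 of 6 fits with 1 mouse left out was it called over probe sets (log2 0.44 to 0.69, limma adjusted p up to 0.0952 without control replicate 1).

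The other sterol enzymes were not called. Cyp27a1, the mitochondrial side-chain hydroxylase of cholesterol, was at 1189, 958 and 884 in control and 978, 918 and 966 in high fat mice (log2 -0.07, 95% interval -0.39 to 0.25). A second Cyp27a1 probe set had a mean signal of 3.19 and was not tested. Cyp7b1, which with Ch25h makes the oxysterol ligand of the receptor Gpr183, gave log2 0.24 and 0.18 by 2 probe sets (limma adjusted p = 0.496 and 0.686). Another Cyp7b1 probe set had a mean signal of 8.2 and was not tested. Cyp8b1, which directs bile acid synthesis to cholic acid, was at 51.1, 57.4 and 92.5 in control and 101, 78.7 and 88 in high fat mice (log2 0.46, limma adjusted p = 0.419), with 2 control values below background. Cyp46a1, known as the cholesterol hydroxylase of brain, was at 63.3 to 84.9 and 53.8 to 106 (log2 0.13).

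Cyp26b1, which clears retinoic acid, varied too much between mice for a comparison. It was at 811, 482 and 496 in control and 276, 722 and 1160 in high fat mice. The high fat mice held both the lowest and the highest value (log2 0.08, 95% interval -0.95 to 1.12). Its relative Cyp26a1 was not above background, although 1 control mouse read 111.

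The 3 probe sets of Cyp20a1 gave different pictures. By the brightest (1435616_at) the gene was at 1434, 1622 and 1403 in control and 1088, 1818 and 1356 in high fat mice, and was not called (log2 -0.09, SE 0.18, limma adjusted p = 0.763). A dimmer probe set (1430452_at) was at 376, 319 and 353 in control and 221, 216 and 202 in high fat mice, without overlap. It fell to 0.61 times the control level (349 ± 28.7 to 213 ± 10.2, SD, n = 3 each; log2 -0.71, SE 0.17, limma adjusted p = 0.0324). The faintest (1443782_x_at) was at 76.3 to 80.2 and 60.9 to 79.1 (log2 -0.13). The called probe set was called in 0 of 6 fits with 1 mouse left out (limma adjusted p up to 0.111 without control replicate 3) and was not called with quantile normalization (log2 -0.54, limma adjusted p = 0.0788) or median centring (log2 -0.44, limma adjusted p = 0.123).

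Promoter windows, from 250 bases before to 50 after the annotated start, are shown for the 2 genes with a probe set called lower. That of Cyp2e1, which was not called but had the largest positive difference, is shown too. The windows describe these genes only and not P450 promoters in general. They are RefSeq sequences of build GRCm38.p6, given 5′ to 3′ on the strand of the gene. Capitals mark the TATAAA box, the CCAAT box and the GC box GGGCGG on either strand, searched as exact letters, where overlaps were allowed. The windows are chr8:72009577-72009876 (minus strand) for Cyp4f18, chr1:60343050-60343349 (plus strand) for Cyp20a1 and chr7:140763569-140763868 (plus strand) for Cyp2e1.
Cyp4f18: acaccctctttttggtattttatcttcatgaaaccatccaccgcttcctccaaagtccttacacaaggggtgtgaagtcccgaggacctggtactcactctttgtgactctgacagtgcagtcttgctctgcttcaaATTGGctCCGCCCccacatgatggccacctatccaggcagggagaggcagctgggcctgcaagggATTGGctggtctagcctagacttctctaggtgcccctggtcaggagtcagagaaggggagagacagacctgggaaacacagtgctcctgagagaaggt
Cyp20a1: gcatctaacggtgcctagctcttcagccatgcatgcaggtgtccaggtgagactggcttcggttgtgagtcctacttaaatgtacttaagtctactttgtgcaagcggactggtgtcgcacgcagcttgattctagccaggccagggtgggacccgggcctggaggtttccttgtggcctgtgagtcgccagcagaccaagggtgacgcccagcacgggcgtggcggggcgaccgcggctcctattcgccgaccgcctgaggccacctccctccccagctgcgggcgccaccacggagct
Cyp2e1: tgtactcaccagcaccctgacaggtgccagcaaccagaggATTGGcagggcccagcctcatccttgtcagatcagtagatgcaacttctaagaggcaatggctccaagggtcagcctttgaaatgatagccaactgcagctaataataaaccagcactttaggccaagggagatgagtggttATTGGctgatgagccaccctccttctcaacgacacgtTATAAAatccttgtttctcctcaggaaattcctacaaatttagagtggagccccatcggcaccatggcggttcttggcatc

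The Cyp4f18 window held 2 CCAAT and 1 GGGCGG match and no TATAAA, the Cyp2e1 window 1 TATAAA and 2 CCAAT matches, and the Cyp20a1 window, the most GC-rich of these at 63%, none of the motifs. RefSeq windows were matched for 47 of the 68 genes, Cyp39a1 not among them. TATAAA stood in 20 of their 54 windows (37.0%), against 13.6% of all 32851 windows, CCAAT in 29 (53.7%, against 37.4%) and GGGCGG in 15 (27.8%, against 35.7%). A match is a description of these letters and says nothing of a factor binding there.

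Genes that work with P450 enzymes were examined as 7 lists, each gene by its brightest tested probe set and with p adjusted over 12689 genes. Of 107 tested genes 12 were called, 10 higher and 2 lower, which is 11.2%, against 6.75% of all genes. No list gives a test of its own, and the counts are descriptions. The number called was 2 with eBayes without trend, 38 with median centring and 2 to 8 with 1 mouse left out, lowest without control replicate 2.

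The electron donors and partners of P450 enzymes, among them cytochrome b5 (Cyb5a) and ferredoxin (Fdx1), gave 0 called of 8 tested (2 at an unadjusted limma p under 0.05, median log2 difference 0.19). P450 reductase, the donor in the endoplasmic reticulum, was not among the genes examined in this list. Of 12 genes of haem synthesis and breakdown 3 rose and 0 fell (median 0.22). Alas1, the first and rate-limiting enzyme of haem synthesis, was at 7001, 8588 and 10215 in control and 12390, 13642 and 12650 in high fat mice (1.52-fold, limma adjusted p = 0.0499). The next enzyme, Alad, rose to 3435 ± 416 from 2058 ± 218 (SD, n = 3 per diet; limma adjusted p = 0.0176), and Cpox, a later enzyme of the chain, to 371 ± 7.51 from 214 ± 27.8 (SD, n = 3 per diet; limma adjusted p = 0.0361). These 3 genes were chosen because they were called, and in each every high fat mouse lay above every control mouse. Across all tested probe sets the groups did not overlap, in either direction, for 36.2%. With 1 mouse left out, Alad stayed called in 4 of 6 fits and Alas1 and Cpox in 0.

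Of 24 nuclear receptors and transcription factors that control P450 genes, 16 were above background, and Nr1i2 (PXR), Nr1i3 (CAR) and Nr1h4 (FXR), known as regulators in liver, were not. Hnf4a, another liver regulator, missed the level on its mean over the 6 arrays, with 78.1, 102 and 129 in control, all above 70.3, and 43, 38.2 and 52.7 in high fat mice, all below it; it was not tested. Of the 16, 3 rose and 1 fell (median 0.36). Cebpa, a factor of adipocytes, macrophages and alveolar epithelium, rose 1.85-fold (2514 ± 232 in control and 4706 ± 859 in high fat mice, SD, n = 3 per diet; limma adjusted p = 0.015). Rarb, a retinoic acid receptor, rose 1.57-fold and Foxa1, a factor of lung epithelium, 1.47-fold (limma adjusted p = 0.0474 and 0.0484). Nr3c1, the glucocorticoid receptor, fell to 0.625 times the control level (limma adjusted p = 0.0498) and is named because it was the remaining called gene of this list, after its value was seen. Adipocytes are known to express Cebpa, and also Rbp4 and Ces1f, described below; the adipocyte markers, of which 6 of 8 tested were called higher, had a median log2 difference of 2.68, and their part in these 3 calls was not tested. With 1 mouse left out, Cebpa stayed called in 5 of 6 fits, Foxa1 in 1 and Rarb and Nr3c1 in 0.

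Of 12 tested genes of retinoid synthesis and transport, 3 rose, 0 fell and 9 were not called (median 0.30): Aldh1a7, an aldehyde dehydrogenase that is also on the club cell list, to 12385 ± 515 from 6492 ± 91 (SD, n = 3 per diet; limma adjusted p = 0.00374), the plasma retinol carrier Rbp4 1.65-fold (limma adjusted p = 0.0137) and the retinol dehydrogenase Rdh10 1.47-fold (limma adjusted p = 0.0345). Aldh1a7 stayed called in 6 of 6 fits with 1 mouse left out, Rbp4 in 5 and Rdh10 in 0.

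Of 39 other genes of drug metabolism, among them epoxide hydrolases, flavin monooxygenases and glutathione transferases, only the carboxylesterase Ces1f was called (210 ± 12.8 to 472 ± 97.4, SD, n = 3 per diet; 2.22 times, limma adjusted p = 0.0166), and the median was 0.07. Of 18 steroid, oxysterol and bile acid genes outside the P450 family 1 was called: Gpr183, the receptor for the oxysterol ligand made by Ch25h and Cyp7b1, was at 496, 544 and 440 in control and 157, 206 and 237 in high fat mice (0.401 times, limma adjusted p = 0.0119). Its call held in 5 of 6 fits with 1 mouse left out and that of Ces1f in 4. Of 7 tested B cell markers 3 were called lower and 0 higher (median log2 difference -0.90). Of 8 tested T and NK cell markers 3 were called lower and 0 higher (median -0.78). The part of these cells in the Gpr183 difference was not tested. The prostanoid synthases Ptgis and Tbxas1, which are P450 enzymes without a Cyp symbol, were not called (log2 0.31 and -0.46; limma adjusted p = 0.181 and 0.356).

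**Figure D5:**
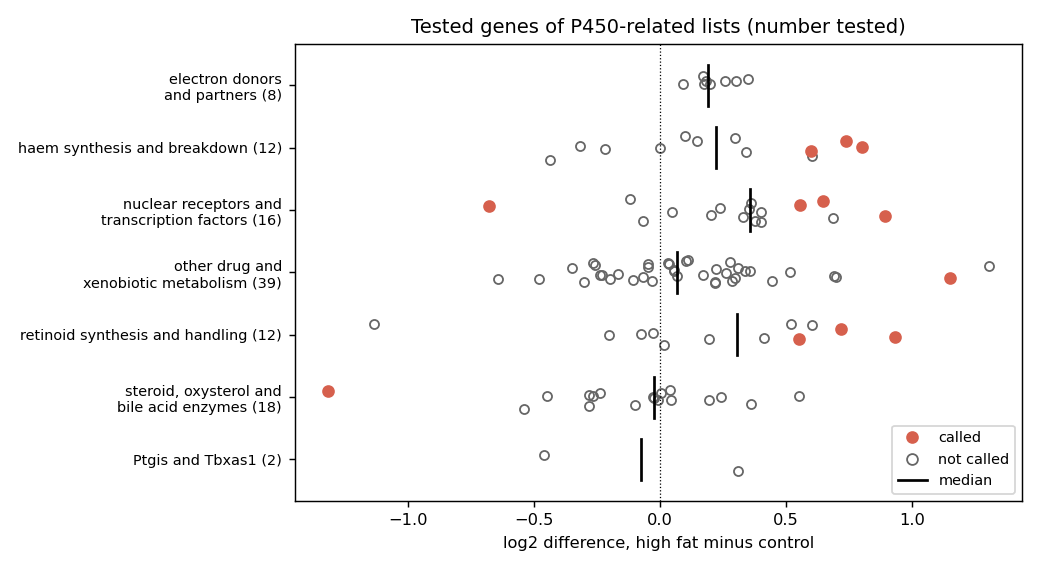
Log2 difference (high fat minus control) of the tested genes of 7 P450-related lists, 1 point per gene; filled points were called (limma, adjusted over genes), open points were not, and black bars are medians. Called genes number 3 in the haem list, 4 in the receptor and factor list, 3 in the retinoid list and 1 each in the drug metabolism and sterol lists.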

How the data were processed

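Lung RNA was hybridised to Affymetrix mouse arrays. The deposited values are intensity summaries that the authors computed with MAS5, per the submitters' processing notes, whose version and settings are not stated there. The values are linear and their trimmed means are nearly equal (498 to 499), so a signal is relative to the rest of its array. Dim MAS5 signals are noisy.

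The platform annotation gave 34958 of 45101 probe sets a single gene symbol, and a RefSeq table of GRCm38.p6 changed 0. Signals under 1 were raised to 1 before log2. Probe sets at or above the 40th percentile of mean log2 signal (64 Affymetrix controls left out) were tested with limma 3.58.1 in R 4.3.3 (lmFit, eBayes with trend, two-sided, diet as the only term), adjusted by Benjamini-Hochberg; the fit was checked on simulated data. A call is an adjusted p under 0.05. Companion and marker genes are represented by the brightest probe set naming only that gene. A sum adds the linear signals of a list's markers on the array, including those below background.

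Named Cyp probe sets are all called ones, the 12 brightest, the 6 largest differences not called, those next to the background level, and other probe sets of the same genes. Named companion genes are up to 3 called genes per list by smallest p; Nr3c1, Cyb5a, Fdx1, Hnf4a and other uncalled or untested ones are named outside that rule. Members and lists were chosen with earlier results of these data known. The precision is limited by 3 arrays per group. Alternatives covered normalization, pseudocount, filter, variance model, array weights, replicate block, gene representative and left-out mice. The labels do not say whether the replicate numbers pair the mice. Deviations of same-numbered mice correlated at 0.17, 0.11 and -0.04, and those of other pairs at -0.21 to 0.13. With 3 arrays per group these values cannot settle whether same-numbered mice were handled together.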

Additional observations from a re-analysis of the deposited data

How the results depend on the processing

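Alternatives were run for 46 log2 differences. Of the 15 that were called, 0 changed sign. Of the 31 that were not, 15 changed sign under at least 1 alternative. Among these were Cyp4b1 (-0.19 to 0.30), Cyp26b1 (-0.38 to 0.91), Cyp27a1 (-0.16 to 0.20) and Cyp3a13 (-0.36 to 0.42). The brightest probe sets of Cyp20a1 (-0.29 to 0.18) and Cyp2b10 (-0.47 to 0.01) were others. No direction is concluded for any that changed sign, and signs given above for them are those of the main fit. Probe sets called higher numbered 1, but 3 with median centring (Cyp2e1, Cyp39a1 and Cyp4v3) and 0 without trend, without a filter, with the replicate block, without either mouse numbered 1 (added after seeing the data), and in each fit with 1 mouse left out (0 to 0). Probe sets called lower numbered 2, but 1 with median centring, quantile normalization, no trend, no filter and without both mice numbered 1, 0 with the replicate block, and 0 to 1 with 1 mouse left out. Genes called higher numbered 0, but 1 with robust estimation and 3 with median centring, and 0 to 0 with 1 mouse left out. Genes called lower numbered 1, but 0 without trend, without a filter, with quantile normalization, with a gene's probe sets averaged and with the replicate block, and 0 to 1 with 1 mouse left out. The median of the tested Cyp probe sets, -0.04, was 0.13 with quantile normalization and 0.23 with median centring, where the median of all tested probe sets was 0.01 and 0.22, and ran from -0.06 to 0.04 with 1 mouse left out. Companion genes called numbered 12, but 38 with median centring, 2 without trend, 7 without both mice numbered 1, and 2 to 8 with 1 mouse left out. Cyp probe sets above background numbered 21 at the 60th percentile and 36 above the receptor level. Whether mice with the same replicate number were handled together is not known. With the replicate block, Cyp4f18, Cyp39a1 and the Cyp20a1 probe set were not called (limma adjusted p = 0.0525, 0.0567 and 0.0559). The share of called probe sets that were higher was 35.9% over all probe sets, against 44.7% with quantile normalization and 80.1% with median centring. With 3 mice per group, the SE of the tested Cyp probe sets ran from 0.12 (Cyp4v3) to 0.49 (Cyp4f39) on the log2 scale.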

Other observations

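Besides the members, 4 probe sets name several Cyp genes and so belong to no single one. The probe set of Cyp2a5 and Cyp2a4, xenobiotic enzymes of nose, lung and liver, was bright, at 4992, 5668 and 5114 in control and 7253, 1950 and 6318 in high fat mice; the high fat mice held both the lowest and the highest value (log2 -0.23, limma adjusted p = 0.743). The probe set of Cyp4f37 and Cyp4f16 was at 344 to 403 in control and 307 to 427 in high fat mice (log2 -0.09, limma adjusted p = 0.778). Those of Cyp4a31 with Cyp4a10 and of Cyp3a41a with Cyp3a41b were below background, with signals of at most 28.6 and 16.7.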
